A study of Mus musculus with 12 samples.

Results

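The folate one-carbon enzymes followed here are Mthfd1, Mthfd1l, Mthfd2, Mthfd2l, Shmt1, Shmt2 and Aldh1l2, and they were taken as the rows of the gene table whose gene name is one of these symbols. All 7 were found, 1 row each, among 43686 rows, and all 7 were among the 17155 rows that passed the filter on low counts. Of the 7 proteins, 5 work in mitochondria (Shmt2, Mthfd2, Mthfd2l, Mthfd1l and Aldh1l2) and 2 in the cytosol (Shmt1 and Mthfd1). Each enzyme was compared between knockout and control hearts, and each mitochondrial enzyme was then set against the cytosolic enzyme that does the same step.

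Ventricular wall RNA of 12 mice (strain C57BL/6 in the labels, C57BL/6J background in the study's methods) was sequenced as poly-A mRNA, 6 hearts a genotype. The WT mice were littermates with floxed Sdhaf4 alleles (Sdhaf4 fl/fl) and no Cre. The KO mice had the same floxed alleles and the Ckmm-Cre transgene, in which the muscle creatine kinase promoter drives Cre in cardiac and skeletal muscle, so that endothelial cells, fibroblasts and other cells of the KO hearts keep the gene. The study describes hearts of these mutants as enlarged and, later, dilated and fibrotic. With this design, effects of the deletion, of Cre itself and of the heart disease cannot be told apart. The labels name the genotypes wild type and Sdhaf4-/- and give an age of 2 months. On this point the study's text is not uniform: its Results give a younger age for the sequenced hearts, and its reporting summary gives male mice of either a younger age or about the labelled one for the omics work.

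Folate carries one-carbon units between metabolites, and most of its enzymes exist as a cytosolic and a mitochondrial form. In mitochondria SHMT2 passes the one-carbon unit of serine to tetrahydrofolate, MTHFD2 or MTHFD2L oxidizes it, and MTHFD1L releases it as formate, which leaves for the cytosol, where MTHFD1 reattaches it for the synthesis of purines, thymidylate and methionine. ALDH1L2 instead burns the unit to carbon dioxide with the formation of NADPH. Mthfd2 is well known as a gene of embryonic and dividing cells that is little used in most adult tissues, and in other settings it has been described as a target of the stress transcription factor ATF4.

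Library totals ran from 23747014 to 27159228 counts for WT and from 26542930 to 31393393 for KO. Sdhaf4, the deleted gene, ranged from 14.3 to 30.3 CPM (counts scaled to library size, with TMM normalization) in the WT hearts and from 2.25 to 2.73 in the KO hearts, with WT replicate 6 the lowest of the WT hearts (log2 fold change -3.39, adjusted p = 1.95e-10 with edgeR's quasi-likelihood test). KO replicate 3 had the highest Myh6, the main cardiac myosin heavy chain, of the KO hearts, at 18600 CPM, above the WT mean of 16500. Leaving out both hearts, an alternative chosen after their values had been seen, left 2 enzymes called higher and 4 called lower, as with all 12 hearts. The cardiomyocyte markers were abundant, with a sum over 7 genes of 43200 to 47700 CPM in WT and 34900 to 49400 in KO, and 4 of the 7 were called lower and 0 higher (median log2 fold change -0.31). Pln (-0.79) and Tnni3 (-0.89) fell with no overlap of the groups, whereas Myh6 (-0.20), Tnnt2 (0.03) and Actc1 (0.24) were not called. The summed fibroblast markers did not overlap, at 1010 to 1190 CPM in WT and 1860 to 2880 in KO, and all 5 were called higher. Of 4 endothelial markers, 2 were called higher and 0 lower. These marker counts stand beside 25.6% of all 17155 rows called higher and 25.5% called lower (edgeR, adjusted p under 0.05). The 3 adipocyte markers (Adipoq, Plin1 and Cidec) fell below the filter and summed to at most 0.688 CPM in any heart. In bulk tissue, fewer cells of a type and less RNA per cell cannot be told apart, and for every enzyme below the part of the cell mixture in its difference was not tested.

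For both mRNAs that rose, Mthfd2 and Mthfd1l, and for the cytosolic Shmt1, which fell, the sequence upstream of the gene start is shown so that the letters of rising and falling members can be set side by side. Each line gives the 250 bases before the start, 5′ to 3′ on the strand of the gene, from RefSeq on GRCm38.p6, with CCAAT boxes on either strand (CCAAT or ATTGG, the site of the factor NF-Y) in capitals. The positions are chr6:83317605-83317854 on the minus strand for Mthfd2, chr10:3972825-3973074 on the plus strand for Mthfd1l and chr11:60811266-60811515 on the minus strand for Shmt1.
Mthfd2: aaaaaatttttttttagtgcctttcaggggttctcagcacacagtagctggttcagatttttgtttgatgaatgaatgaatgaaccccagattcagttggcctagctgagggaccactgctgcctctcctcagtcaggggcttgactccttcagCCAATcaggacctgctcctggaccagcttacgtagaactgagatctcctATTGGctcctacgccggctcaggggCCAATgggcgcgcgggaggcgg
Mthfd1l: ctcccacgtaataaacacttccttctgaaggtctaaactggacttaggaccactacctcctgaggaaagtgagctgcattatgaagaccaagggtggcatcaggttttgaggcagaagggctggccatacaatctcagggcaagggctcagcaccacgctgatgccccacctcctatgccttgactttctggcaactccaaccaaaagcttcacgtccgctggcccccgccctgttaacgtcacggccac
Shmt1: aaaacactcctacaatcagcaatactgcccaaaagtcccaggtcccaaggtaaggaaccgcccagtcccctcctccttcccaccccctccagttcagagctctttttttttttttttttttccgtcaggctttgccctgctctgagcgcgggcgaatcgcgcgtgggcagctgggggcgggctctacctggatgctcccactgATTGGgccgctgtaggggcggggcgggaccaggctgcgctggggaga
Mthfd2 held 3 CCAAT boxes, whose first bases lie at positions -96, -47 and -22 from the start. Shmt1 and Mthfd1 each held 1, at -47 and -69, and Mthfd1l, Shmt2 and Mthfd2l held 0. These searches covered the whole RefSeq window of each gene, from 250 bases before to 50 after the start, of which only the upstream bases are printed. Over all 32851 such windows, 37.4% held a CCAAT box and 3.37% held 3 or more. This motif was chosen after the letters had been seen. Of the other motifs searched on both strands, TGATGNAA, the core of the composite ATF4 and C/EBP site, was in 3.97% of all windows, and CACGTG, an E-box, in 7.15%. Neither was in the windows of the 6 enzymes that have an entry, which says only that these letters are not in these windows. Aldh1l2 has no entry.

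The mitochondrial enzymes did not differ in the same direction between KO and WT hearts. Mthfd2 and Mthfd1l rose by several fold, Aldh1l2 fell about as strongly, and Shmt2 and Mthfd2l fell by small amounts. Of the cytosolic pair, Shmt1 fell and Mthfd1 was not called. At an adjusted p under 0.05 (edgeR, adjusted over all 17155 rows), 2 of the 7 enzymes were higher and 4 were lower, whereas 25.6% of all rows were higher and 25.5% lower, and 51.1% were called either way. By compartment, 2 of the 5 mitochondrial enzymes were higher and 3 lower, with a median log2 fold change of -0.25, and of the 2 cytosolic enzymes 1 was lower and 1 not called, with a median of -0.67. The median over all rows was 0.00. With the stricter rule of the study's methods (log2 fold change beyond 1 in either direction at an adjusted p below 0.005), 4 enzymes passed, where 10.2% of all rows did. Of these, 2 were higher, as were 5.36% of all rows, and 2 lower, as were 4.87%. For 5 of the 7 the WT and KO hearts did not overlap in CPM, 2 with KO above WT and 3 with KO below. Over all rows this was so for 30.1%, with KO above in 14.9% and below in 15.2%.

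**Figure D1:**
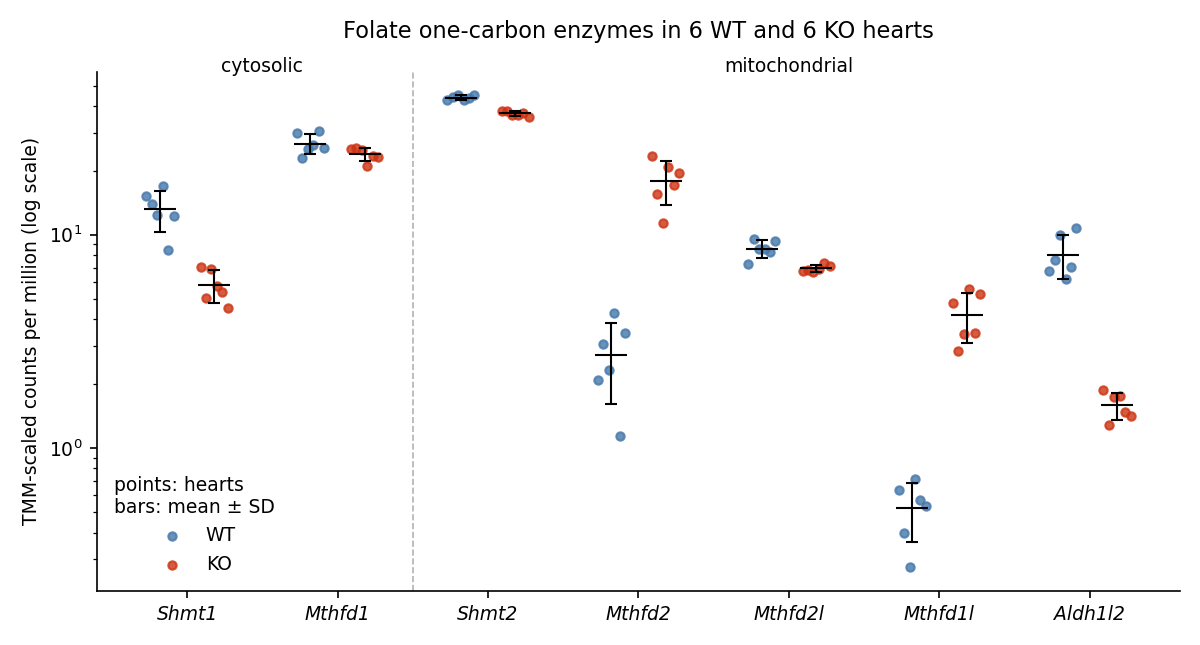
TMM-scaled CPM (log scale) of the 7 enzymes in 6 WT (blue) and 6 KO (red) hearts, with the cytosolic enzymes on the left and the mitochondrial ones on the right. Points are hearts, and bars are the mean and SD. Mthfd2 rose from a WT mean of 2.72 to a KO mean of 17.9 and Mthfd1l from 0.521 to 4.22, while Aldh1l2 fell from 8.07 to 1.58.

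Mthfd2 codes for the NAD-dependent methylenetetrahydrofolate dehydrogenase and cyclohydrolase of mitochondria (MGP_C57BL6NJ_G0031367, chromosome 6, 86620683 to 86640860, minus strand, C57BL/6NJ annotation). Its lowest, median and highest values were 1.13, 2.70 and 4.29 CPM in the WT hearts, and 11.4, 18.3 and 23.4 CPM in the KO hearts. Every KO heart was above every WT heart. KO replicate 1 was the highest, KO replicate 3 the lowest of the KO hearts, and WT replicate 5 the lowest of all 12. The mean went from 2.72 ± 1.11 CPM (SD, n = 6) to 17.9 ± 4.21, a 6.56-fold rise (log2 fold change 2.71, standard error 0.256, 95% interval 2.16 to 3.27, edgeR adjusted p = 1.25e-06). Of all rows tested, 127, or 0.74%, had a log2 fold change as high as or higher than this. The row of Mthfd2 shares 2799 bases with an unnamed row on the same strand, which had 0 to 8 counts. The log2 fold change of Mthfd2 was 2.55 to 2.88 when each heart was left out in turn, and 2.89 without WT replicate 6 and KO replicate 3.

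Mthfd1l codes for the mitochondrial formyltetrahydrofolate synthetase, which sets formate free (MGP_C57BL6NJ_G0017374, chromosome 10, 922217 to 1147440, plus strand). It was barely detected in WT hearts, at 7 to 18 counts a library, or 0.275, 0.551 and 0.716 CPM (lowest, median and highest). The KO hearts had 76 to 161 counts, or 2.85, 4.12 and 5.53 CPM. Every KO heart was above every WT heart. The rise was 8.07-fold (log2 fold change 3.01, standard error 0.244, 95% interval 2.50 to 3.53, edgeR adjusted p = 3.3e-08), and it was 2.88 to 3.12 with each heart left out in turn.

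The same 3 KO hearts were the upper ones for both enzymes. KO replicates 1, 4 and 6 had 23.4, 20.7 and 19.4 CPM of Mthfd2, and 4.79, 5.53 and 5.26 CPM of Mthfd1l. KO replicates 2, 3 and 5 had 15.6, 11.4 and 17.2 CPM of Mthfd2, and 2.85, 3.41 and 3.46 CPM of Mthfd1l. So the 3 upper KO hearts were upper for both mRNAs, but KO replicate 1 was the highest for Mthfd2 and KO replicate 4 for Mthfd1l. This split was picked after the values had been seen and was not tested. Among WT hearts, replicate 4 was the highest for both, but the rest did not keep the same order. WT replicate 5, the lowest for Mthfd2 at 1.13 CPM, had 0.566 CPM of Mthfd1l, above the WT median of 0.551. The WT values of Mthfd1l rest on 7 to 18 counts.

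Mthfd2l is the paralog of Mthfd2 that does the same oxidation in adult mitochondria (MGP_C57BL6NJ_G0030163, chromosome 5, 95692744 to 95781953, plus strand). Its values were 7.27, 8.56 and 9.54 CPM in WT and 6.69, 6.87 and 7.37 CPM in KO. The groups touched through WT replicate 1, the lowest WT heart, which lay below the highest KO heart, and the KO hearts were the more tightly packed. Mthfd2l fell 1.24-fold (log2 fold change -0.31, standard error 0.089, 95% interval -0.495 to -0.118, edgeR adjusted p = 0.00822).

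Shmt2 codes for mitochondrial serine hydroxymethyltransferase, the entry of serine carbon into the pathway (MGP_C57BL6NJ_G0018219, chromosome 10, 135578368 to 135584750, minus strand). It was the steadiest of the enzymes, with a coefficient of variation of 2.37% in WT and 2.65% in KO. Its values were 42.8, 44.0 and 45.2 CPM in WT and 35.8, 37.0 and 38.2 CPM in KO. The groups did not overlap, although the fall was only 1.19-fold (log2 fold change -0.25, standard error 0.043, 95% interval -0.34 to -0.156, edgeR adjusted p = 0.000138). Its row shares 30 bases with Ndufa4l2 on the opposite strand, which had 387 to 889 counts. The library kit does not mark strand, so strand cannot tell apart reads in shared bases, here or in the other overlaps given. How HTSeq was set for strand is not given in the sources used here.

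Aldh1l2 codes for the mitochondrial 10-formyltetrahydrofolate dehydrogenase (MGP_C57BL6NJ_G0017986, chromosome 10, 87199058 to 87248525, minus strand). The WT hearts had 6.20, 7.35 and 10.8 CPM and the KO hearts 1.27, 1.59 and 1.86 CPM, which was 34 to 58 counts. Every KO heart lay below every WT heart, and WT replicates 3 and 6 were the highest of all. Aldh1l2 fell 5.08-fold (log2 fold change -2.35, standard error 0.165, 95% interval -2.69 to -2.0, edgeR adjusted p = 6.36e-09). A log2 fold change as low as or lower than this was found for 196 rows, or 1.14%. It was -2.42 to -2.25 with each heart left out in turn.

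Shmt1 codes for the cytosolic serine hydroxymethyltransferase (MGP_C57BL6NJ_G0018818, chromosome 11, 62629793 to 62654758, minus strand). Its values were 8.50, 13.1 and 16.9 CPM in WT and 4.51, 5.59 and 7.03 CPM in KO. The groups did not overlap, and WT replicate 5, the lowest WT heart, came closest to the KO hearts. Shmt1 fell 2.27-fold (log2 fold change -1.19, standard error 0.152, 95% interval -1.51 to -0.865, edgeR adjusted p = 6.07e-06). Its row shares 184 bases with Smcr8 on the opposite strand, which had 718 to 1058 counts.

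Mthfd1 codes for the cytosolic enzyme that joins all 3 activities of synthetase, cyclohydrolase and dehydrogenase in a single protein (MGP_C57BL6NJ_G0020243, chromosome 12, 78697870 to 78768187, plus strand). It had 23.0, 26.0 and 30.5 CPM in WT and 21.1, 24.2 and 25.5 CPM in KO, and the groups overlapped. Its log2 fold change was -0.16 (standard error 0.075, 95% interval -0.32 to -0.00377), with an edgeR adjusted p of 0.0814, and without WT replicate 2, the lowest WT heart, it was -0.20 with an adjusted p of 0.0303.

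The question of compartment was put within each heart, as the log2 ratio of the counts of a mitochondrial enzyme to those of its counterpart, so that library size cancels. With 6 hearts a group, an exact two-sided permutation test can give no p smaller than 0.00216, and p-values were adjusted over the 6 pairs, some of which share Mthfd1 or Mthfd2. For serine hydroxymethyltransferase, the log2 ratio of Shmt2 to Shmt1 was 1.34, 1.77 and 2.37 in WT (lowest, median, highest) and 2.39, 2.72 and 2.98 in KO. The KO hearts lay just above the WT hearts, with a mean difference of 0.92 (standard error 0.178), or 1.9-fold (exact permutation p = 0.00216, adjusted 0.00325). Both mRNAs of this pair fell, Shmt1 the more.

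For formate release and capture, the log2 ratio of Mthfd1l to Mthfd1 was -6.42, -5.61 and -5.17 in WT and -3.16, -2.58 and -1.93 in KO. The difference was 3.15 (standard error 0.255), or 8.86-fold. The log2 ratio of Mthfd2 to Mthfd1 was -4.73, -3.16 and -2.62 in WT and -1.13, -0.36 and -0.02 in KO, a difference of 2.95 (standard error 0.363), or 7.73-fold. Neither pair of groups overlapped (exact permutation p = 0.00216 and adjusted 0.00325 for each). In contrast, the log2 ratio of Mthfd2l to Mthfd1 was -2.04, -1.59 and -1.27 in WT and -1.90, -1.80 and -1.61 in KO. These groups overlapped, with a difference of -0.14 (standard error 0.127, exact permutation p = 0.284, adjusted 0.34).

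Between the mitochondrial paralogs, the log2 ratio of Mthfd2 to Mthfd2l was -2.84, -1.72 and -0.99 in WT and 0.77, 1.33 and 1.79 in KO. Every WT heart thus had fewer Mthfd2 than Mthfd2l counts, and every KO heart had more. These counts are not scaled to gene length, which is 2085 bases for Mthfd2 and 4148 for Mthfd2l. Per length, WT replicate 4 had slightly more Mthfd2 (4.91 FPKM) than Mthfd2l (4.44 FPKM). The difference was 3.09 (standard error 0.292), or 8.54-fold (exact permutation p = 0.00216, adjusted 0.00325).

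Aldh1l1, the cytosolic counterpart of Aldh1l2 and known as an astrocyte and liver enzyme, is not among the 7 and is given only for this pair. It had 3.72, 4.44 and 6.96 CPM in WT and 0.397, 0.995 and 2.67 CPM in KO, and it fell too (log2 fold change -2.01, standard error 0.326, edgeR adjusted p = 0.000103). In WT hearts, replicates 3 and 6 were the highest for both. The log2 ratio of Aldh1l2 to Aldh1l1 was 0.51, 0.70 and 0.92 in WT, and it scattered from -0.92 to 2.07 in KO, with a median of 0.79. The difference was -0.15 (standard error 0.427, exact permutation p = 0.775, adjusted 0.775), and its sign turned without KO replicate 2 (0.01) or without KO replicate 6 (0.14), so that no difference between the compartments was detectable for this step.

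**Figure D2:**
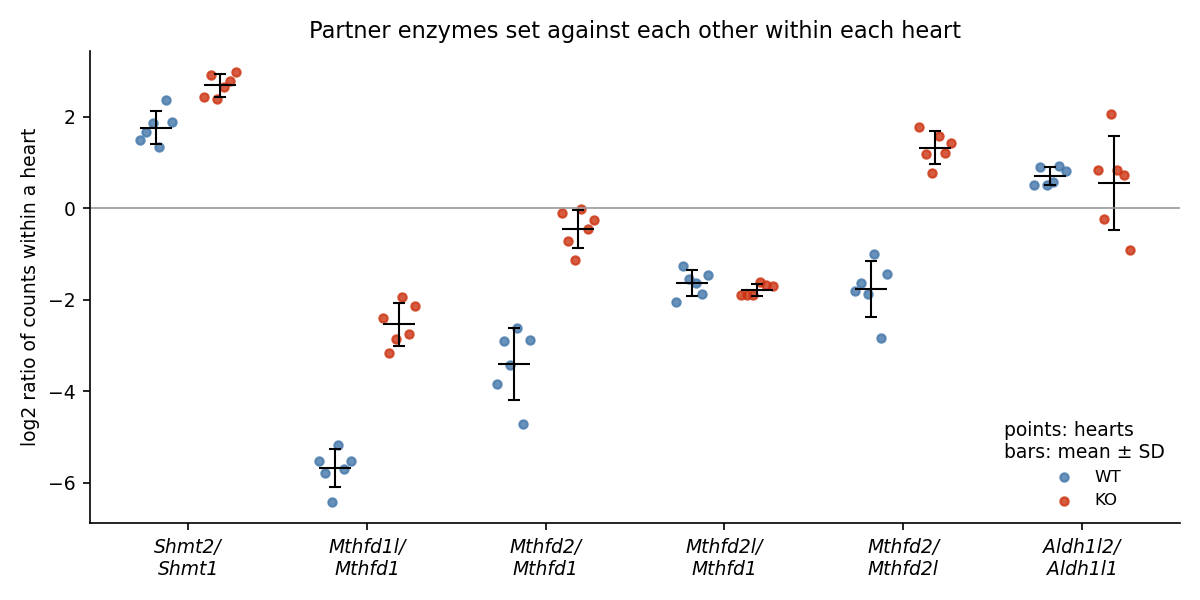
Log2 ratio of counts of a mitochondrial enzyme to its counterpart within each heart, for 6 pairs. Points are WT (blue) and KO (red) hearts, and bars are the mean and SD. The groups separate for Shmt2/Shmt1, Mthfd1l/Mthfd1, Mthfd2/Mthfd1 and Mthfd2/Mthfd2l, and overlap for Mthfd2l/Mthfd1 and Aldh1l2/Aldh1l1.

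Levels of different enzymes were compared per gene length, with the FPKM that the authors deposited. In WT hearts the order of the mean FPKM was Shmt2 (19.1 ± 0.691, SD, n = 6), Shmt1 (12.1 ± 2.66), Mthfd1 (8.04 ± 0.788), Aldh1l2 (5.10 ± 1.23), Mthfd2l (4.52 ± 0.493), Mthfd2 (3.16 ± 1.31) and Mthfd1l (0.179 ± 0.0544). The ranges of the hearts overlapped between Shmt1 and Mthfd1, between Aldh1l2 and Mthfd2l, and between Mthfd2l and Mthfd2. In KO hearts Mthfd2 came first, at 20.9 ± 5.20 FPKM (range 12.7 to 27.5), over a range that includes all of Shmt2, at 16.1 ± 0.748 (15.1 to 16.8). Then followed Mthfd1 (7.19 ± 0.470), Shmt1 (5.31 ± 0.934), Mthfd2l (3.66 ± 0.174), Mthfd1l (1.46 ± 0.399) and Aldh1l2 (0.998 ± 0.154). The neighbours Mthfd1 and Shmt1 overlapped here, as did Mthfd1l and Aldh1l2. Mthfd2 thus moved from near the end of the order to the range of Shmt2, while Aldh1l2 moved to the last place.

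The sum of the FPKM of all 7 enzymes had a median of 52.6 and a range of 45.3 to 55.9 in WT, and a median of 54.5 and a range of 46.7 to 65.1 in KO, so the groups overlapped in the total while its make-up differed. Mthfd2 made up 2.83% to 8.93% of this sum in WT hearts and 27.2% to 42.3% in KO hearts, with medians of 5.98% and 38.6%. The mitochondrial enzymes together made up 56.1% to 65.2% in WT and 71.5% to 80.0% in KO, with medians of 62.9% and 77.9%. Shmt2 alone made up 33.4% to 41.1% in WT and 25.8% to 32.4% in KO. Of the summed FPKM of both paralogs, Mthfd2 was 23.2% to 52.5% in WT and 78.9% to 88.4% in KO, with medians of 40.0% and 84.7%. These shares rest on the same counts as the fold changes and carry no test of their own.

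**Figure D3:**
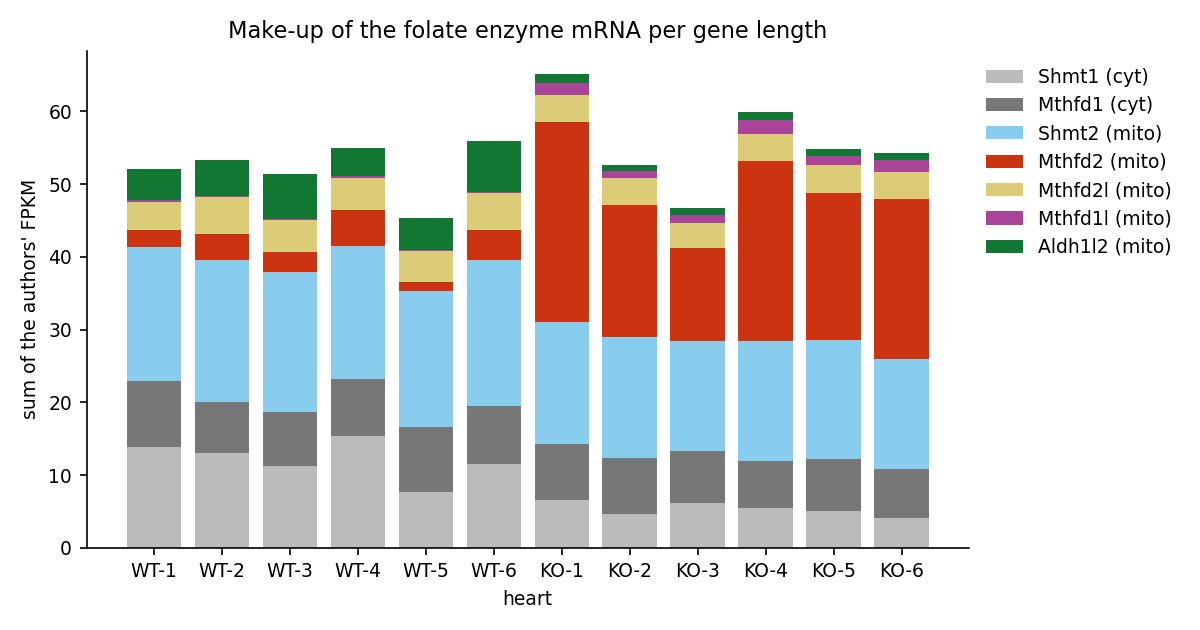
Sum of the authors' FPKM (a level per gene length) of the 7 enzymes in each of 12 hearts, stacked by enzyme, with cytosolic enzymes in greys at the base. The sums overlap between groups (45.3 to 55.9 in WT, 46.7 to 65.1 in KO), and the Mthfd2 segment holds 2.83% to 8.93% in WT and 27.2% to 42.3% in KO.

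The enzymes were followed by the genes around them. The counts of calls in the lists below stand beside 25.6% of all 17155 rows called higher and 25.5% called lower. No list was tested as a set. Of the 4 tested genes of cytosolic folate interconversion reported here, which include both cytosolic enzymes, 1 was higher, 2 were lower and 1 was not called, with a median log2 fold change of -0.67. The higher one was Tyms, thymidylate synthase, which rose from 1.63 ± 0.539 to 2.86 ± 0.938 CPM (log2 fold change 0.80, edgeR adjusted p = 0.0134), the lower ones were Shmt1 and Aldh1l1, and Mthfd1 was not called. Ftcd was below the filter, and Mthfs was not analysed here.

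Of the 12 tested mitochondrial folate enzymes and carriers, 5 of them the enzymes above, 3 were higher, 5 lower and 4 not called, with a median of -0.05. Gcsh, the lipoyl protein of the glycine cleavage system, fell from 50.9 ± 4.15 to 38.1 ± 1.16 CPM (log2 fold change -0.42, edgeR adjusted p = 8.54e-06). Amt, its aminomethyltransferase, fell with a log2 fold change of -0.53 (edgeR adjusted p = 0.0215), and leaving out WT replicate 6 or KO replicate 2 raised that p, to at most 0.0541. Sardh, which oxidizes sarcosine and hands its carbon to folate, rose from 9.33 ± 1.78 to 14.0 ± 2.70 CPM (log2 fold change 0.58, edgeR adjusted p = 0.00248). The carriers were not called, with log2 fold changes of 0.10 for the folate carrier Slc25a32 (edgeR adjusted p = 0.204) and -0.16 for the serine carrier Sfxn1 (adjusted p = 0.128). Dmgdh was below the filter.

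Of 5 tested genes of folate uptake and retention, 1 was higher, 2 lower and 2 not called, with a median of -0.44. Folr2, a folate receptor known from tissue macrophages, fell from 10.4 ± 2.71 to 3.87 ± 1.18 CPM (log2 fold change -1.42, edgeR adjusted p = 2.74e-05), and beside it the summed macrophage markers were 118 to 164 CPM in WT and 110 to 174 in KO, with 2 of 4 lower. Slc19a1, the reduced folate carrier, fell with a log2 fold change of -0.49 (edgeR adjusted p = 0.00709), although 8995 bases of its row are shared with Col18a1 on the other strand, which had 346 to 1258 counts. Ggh, which trims the polyglutamate tail of folates, rose with a log2 fold change of 0.31 (edgeR adjusted p = 0.00447).

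Among the users of folate carbon, 5 of 6 genes of de novo purine synthesis were lower and 1 was not called, with a median of -0.43. Of all rows, 25.5% were lower. Adsl, adenylosuccinate lyase, fell from 74.3 ± 2.57 to 52.8 ± 2.91 CPM (log2 fold change -0.49, edgeR adjusted p = 2.16e-07). Gart, whose protein takes up a formyl group from folate, fell to 40.5 ± 2.43 CPM (log2 fold change -0.49, edgeR adjusted p = 1.18e-06), and Atic, the other formyl-using enzyme, by less (-0.23, edgeR adjusted p = 0.00165). Pfas fell the most of the 6 (log2 fold change -0.96, edgeR adjusted p = 2.08e-06). Ppat, the first enzyme of the route, had a log2 fold change of 0.02 (edgeR adjusted p = 0.829).

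Of 11 tested genes of the methionine cycle and methyl transfer, 3 were higher, 6 lower and 2 not called, with a median of -0.15. Gnmt, the glycine methyltransferase whose product sarcosine is the substrate of Sardh, fell from 3.27 ± 0.879 to 0.487 ± 0.227 CPM (log2 fold change -2.74, edgeR adjusted p = 5.06e-07). The KO values of Gnmt rest on 7 to 23 counts. Its row shares 3430 bases with an unnamed row of 0 to 23 counts on the other strand. Gamt fell with a log2 fold change of -1.26 (edgeR adjusted p = 6.06e-05). Ahcy, which splits S-adenosylhomocysteine, fell with a log2 fold change of -0.30 (edgeR adjusted p = 0.00262). The 3 higher genes were Ahcyl1 (log2 fold change 0.34, edgeR adjusted p = 8.14e-05), Ahcyl2 (0.26, 0.00681) and Pemt (0.96, 0.0143). Mat2b, which regulates the synthesis of S-adenosylmethionine, was the weakest call of the list, and it was lost in 9 of the 12 fits that left out a heart, with no filter on low counts (edgeR adjusted p = 0.0546) and with the replicate number as a block (0.0611).

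Of 3 genes of serine synthesis, which feed SHMT with serine, 2 were higher and 1 was not called, with a median log2 fold change of 0.56. Phgdh, the first enzyme, rose from 0.498 ± 0.194 to 1.03 ± 0.410 CPM (log2 fold change 1.05, edgeR adjusted p = 0.0194), on 5 to 20 counts in WT and 12 to 42 in KO. Psat1 had a log2 fold change of -0.07 (edgeR adjusted p = 0.801). Psph rose by 0.56 (edgeR adjusted p = 0.00126), in a row that shares 452 bases with an unnamed row of 2376 to 3261 counts on the other strand. Of 6 genes of the integrated stress response, 3 were higher and 3 not called, with a median of 0.34, whereas 25.6% of all rows were higher. Atf4 rose from 86.4 ± 6.48 to 108 ± 5.21 CPM (log2 fold change 0.32, edgeR adjusted p = 0.000121), Ddit3 with a log2 fold change of 0.95 (9.39e-07) and Asns with 1.39 (9.44e-06). Trib3 was not called (0.37, edgeR adjusted p = 0.0718, and 0.0242 without KO replicate 1). Mthfd2 and Mthfd1l had the highest log2 fold changes of all the genes in these lists, and Gnmt and Aldh1l2 the lowest.

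**Figure D4:**
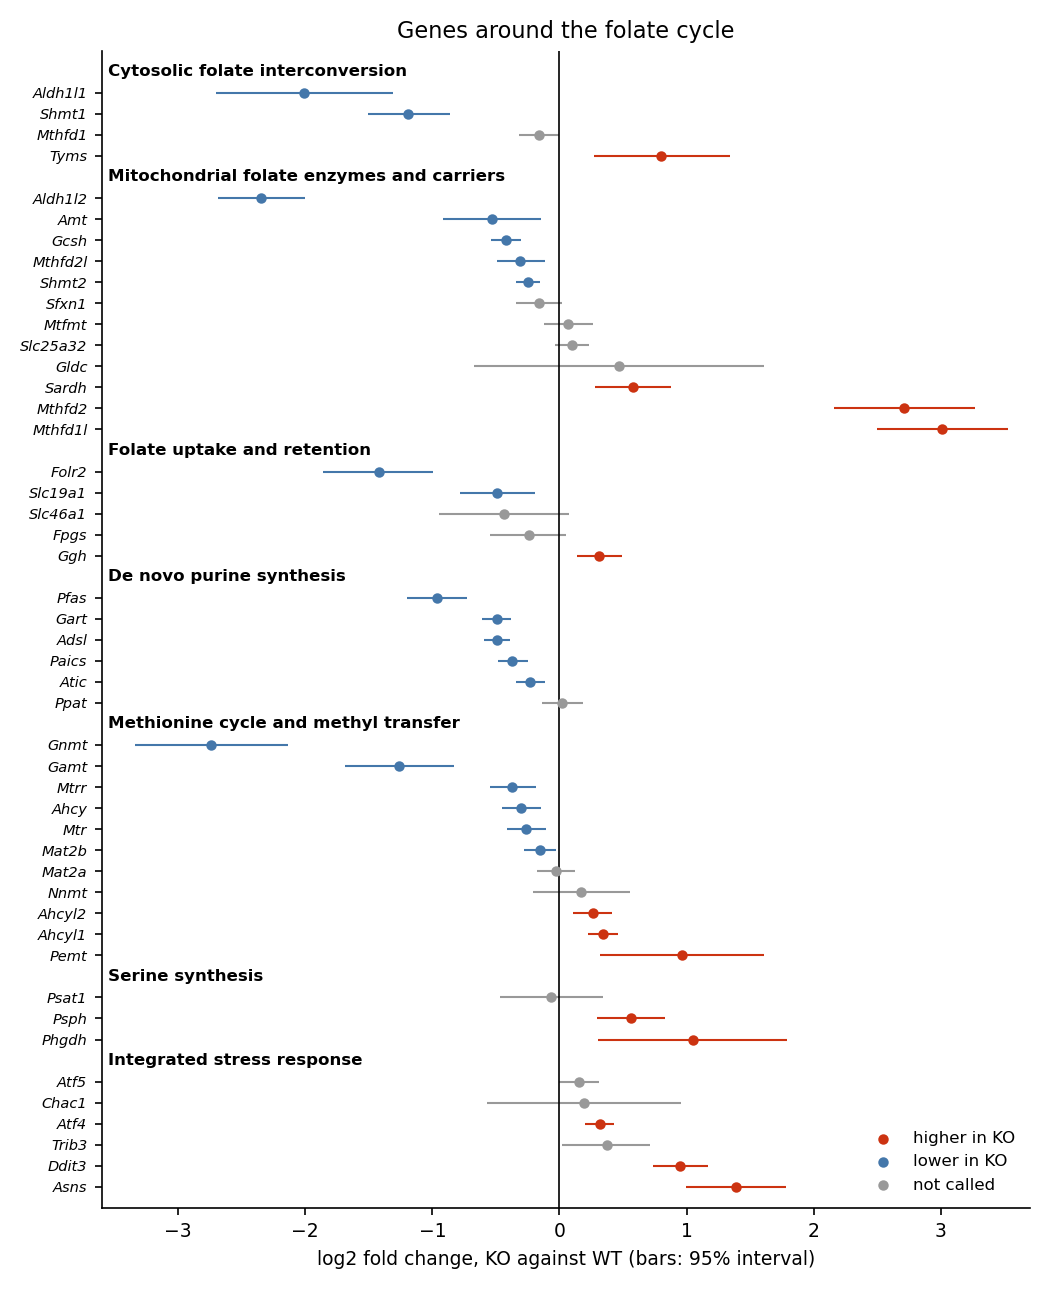
Log2 fold change of KO against WT (edgeR, bars are 95% intervals) for the tested genes of 7 lists around the folate cycle, coloured by call at an adjusted p under 0.05 (red higher, blue lower, grey not called). Mthfd1l (3.01) and Mthfd2 (2.71) have the highest values, and Gnmt (-2.74) and Aldh1l2 (-2.35) the lowest, followed by Aldh1l1 (-2.01), whose interval overlaps that of Aldh1l2.

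Mthfd2 is known to be used in dividing cells, so markers of these cells are given beside it. Their sum over 5 genes was 23.7 to 60.0 CPM in WT and 4.47 to 24.6 CPM in KO. Of the 5, 2 were lower and 0 higher, whereas 25.5% of all rows were lower and 25.6% higher. The fibroblast markers were higher, as given above. The part of either cell type in the rise of Mthfd2 and Mthfd1l was not tested. Liver markers were near 0, with a sum of 0.405 to 0.905 CPM in WT and 0.132 to 0.450 CPM in KO.

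The genes whose pattern over the 12 hearts was most like that of each enzyme were found by the root mean square difference of log2 CPM, taken relative to the WT mean, among 11949 named rows with a mean of at least 1 CPM. Before the log, 0.5 CPM was added, which shrinks the differences of genes with few counts. This measure is a description, and genes that differ by a like amount between genotypes on this scale come out as alike. For Mthfd2 the nearest were Nppb, the B-type natriuretic peptide (0.33, with 274 CPM in WT and 1620 in KO), Mfap4, a microfibril protein (0.371), and Xirp2, an actin-binding protein of muscle (0.372), and Mthfd1l came at rank 21 (0.484). For Mthfd1l the nearest were Lox, lysyl oxidase (0.213, with 23.4 and 105 CPM), Sh3rf3 (0.258) and Bgn, the matrix proteoglycan biglycan (0.267). At a WT mean of 0.521 CPM, the difference of Mthfd1l is shrunk by the added 0.5. Its edgeR log2 fold change of 3.01 was above those of Lox (2.17), Sh3rf3 (2.66) and Bgn (2.03), so these neighbours depend on the added amount. For Aldh1l2 they were Whrn (0.171), Slc2a12, a sugar transporter (0.188), and 9030617O03Rik (0.233). Shmt1 was nearest to Ackr3, a chemokine receptor (0.176), Slc22a5, the carnitine transporter (0.217), and Fkbp4, a co-chaperone (0.22). For the enzymes that differed least, the nearest genes were Ulk2 for Shmt2 (0.047), Il16 for Mthfd2l (0.058) and Chrac1 for Mthfd1 (0.072). None of the 7 enzymes was among the 3 nearest of another, and the closest pair of them was Shmt2 and Mthfd2l (0.089).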

How the data were processed

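The authors prepared libraries with an Illumina TruSeq RNA kit, which does not mark strand, and counted reads per gene with HTSeq. HISAT2 2.0.5 and mm10 are named by the submitters' processing notes, whereas the table's gene identifiers and coordinates belong to the C57BL/6NJ annotation, and the deposited raw counts were used on those rows. The authors also deposited FPKM per library, used here only to compare levels between genes. Group means of scaled counts, a signal, and the authors' own comparison (log2 fold change and p-value, raw and adjusted) were deposited too and were not used.

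Counts were tested with edgeR 4.0.16 in R 4.3.3 (filterByExpr, TMM, robust quasi-likelihood test), and p-values were adjusted over 17155 rows by Benjamini and Hochberg. The standard error of a log2 fold change is its size over the square root of F. Ratios within a heart had 0.5 counts added to each gene and were tested by exact permutation in SciPy 1.17.1. The fit was tested on simulated counts. The enzymes and gene lists were chosen with earlier results of these data known. All 7 enzymes are named, with at most 4 examples a list by smallest p where a list is described, further list genes by role, and the 3 nearest genes of each pattern. Tyms, Ahcy and Phgdh had no gene name and were taken from the table's own pathway annotation, 1 row each. Some genes of the cytosolic list are not reported here, and its counts leave them out.

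The titles number the hearts 1 to 6 in each group. The edgeR p-values set the genotype difference against the spread between libraries of a group. The permutation p-values set it against the other splits of these 12 libraries. At 7 to 18 counts a gene is measured with large counting error. Alternatives were other normalizations (DESeq2 size factors, upper quartile, library size), tests (DESeq2 1.42.0, limma-voom with limma 3.58.1, no robust dispersions) and filters, unannotated rows left out, a replicate block, each heart left out, 5 counts added or FPKM for the ratios, and medians for the FPKM levels. Promoter sequences are from RefSeq.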

Additional observations from a re-analysis of the deposited data

Results flagged for a closer look

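Of 108 groups of 6 hearts examined among the enzymes, their ratios and the genes around them, 9 had a heart that stood apart from the others by Dixon's criterion, where chance gives about 5.4 (1 in 20). None of them was in the 7 enzymes or the 6 ratios. In WT hearts, Ggh was 12.7 CPM in replicate 1 (others 9.79 to 10.9), Pemt 1.99 in replicate 1 (others 0.477 to 0.994) and Atf5 66.5 in replicate 4 (others 48.6 to 54.7). In KO hearts, Sdhaf4 was 2.73 CPM in replicate 1 (others 2.25 to 2.41), Sfxn1 13.3 in replicate 2 (others 10.6 to 11.4), Ahcyl2 21.5 in replicate 3 (others 26.1 to 28.0) and Pemt 1.01 in replicate 5 (others 1.89 to 2.34). KO replicate 6 had 2 such values, Amt at 4.18 CPM (others 1.91 to 2.70) and Mat2a at 156 CPM (others 189 to 206).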

How the results depend on the processing

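Under other settings 2 values reversed, 1 passed the threshold that it had missed and 1 count moved by over 1.5 times. The other 474 values kept direction and side of the threshold (tests), stayed within 1.5 times (counts, some of which gained or lost a call) or moved by less than 1 SD (FPKM levels). The difference of the Aldh1l2 to Aldh1l1 ratio, -0.15, became 0.01 without KO replicate 2 and 0.14 without KO replicate 6, and ran from -0.45 to 0.14 with each heart left out. Mthfd1 ran from -0.20 to -0.13 and was called only without WT replicate 2 (adjusted p = 0.0303, edgeR). Serine synthesis had 1 call in place of 2 under the filter of at least 1 CPM in 6 libraries. Phgdh, at no more than 0.809 CPM in WT and 0.433 CPM in the lowest KO heart, did not pass this filter and was not tested. Without WT replicate 6 and KO replicate 3, chosen after seeing the data, the ratio differences were 1.01 for Shmt2/Shmt1 and 3.27 for Mthfd2/Mthfd2l, and Amt lost its call. The cause of each was not tested. No scaling moved the median of all rows by more than 0.01 (log2). The same replicate numbers in both groups share only a number: deviations of same-numbered hearts correlated between -0.214 and 0.0471, and 1 of the 6 numbers had its own counterpart as the best match. With the replicate block, 4123 rows were higher and 4110 lower, against 4391 and 4376 without it, and the log2 fold changes were 2.75 for Mthfd2, 3.01 for Mthfd1l and -2.33 for Aldh1l2. It changed no call of the 7 enzymes or 6 ratios, and in the lists it lost the call of Mat2b (adjusted p = 0.0611, edgeR), so that the methionine list had 8 calls in place of 9.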
